A study of Mus musculus with 6 samples.

Results

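The genes examined were 7 members of the cholesterol synthesis pathway, *Hmgcs1*, *Idi1*, *Fdft1*, *Sqle*, *Lss*, *Dhcr7* and *Insig1*. They were chosen by name from the table of 38553 genes, and each name had a single entry, so 7 genes were followed in 6 samples. RNA-Seq had been performed on poly(A)+ RNA from craniofacial tissue microdissected from mouse embryos at E12.5. The 3 control embryos were *Rbfox2* flox/flox, in which *Rbfox2*, the gene of an RNA-binding splicing factor, is flanked by loxP sites, and no Cre was named for them. The 3 mutant embryos were Pax3Cre/+:Rbfox2 flox/flox, so by these genotypes all 6 embryos shared the floxed alleles and Cre was named for the mutants alone. The paper's methods also list *Rbfox2* flox/+ and Pax3Cre/+;Rbfox2 flox/+ embryos among its controls, without a genotype for each sequenced embryo. The Cre was expressed from the *Pax3* locus, which is active in the dorsal neural tube, the neural crest and the paraxial mesoderm, and the mutants therefore also carried a disrupted *Pax3* allele. Mice were kept on mixed genetic backgrounds, and the dissected tissue held cells outside the *Pax3* lineage. In such bulk tissue, fewer cells of a type and less RNA per cell cannot be told apart.

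Cells make cholesterol from acetyl-CoA through mevalonate, isoprenoid diphosphates, squalene and lanosterol. When sterols in the endoplasmic reticulum fall, the transcription factor SREBP-2 is released by proteolysis and raises transcription of nearly every enzyme of the route, usually together with the factors NF-Y and Sp1, and INSIG1 is part of the feedback that holds SREBP-2 back. The pathway is known in craniofacial development because loss of its late enzyme DHCR7 causes Smith-Lemli-Opitz syndrome, in which cleft palate is common, and because sterols are required for Hedgehog signalling. The comparison asked whether the RNA of these genes differed between control and *Rbfox2* mutant craniofacial tissue.

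The entry into the mevalonate route, the cyclisation of squalene epoxide and the feedback regulator are represented by *Hmgcs1*, *Lss* and *Insig1*. Promoter sequences are shown for these genes. They are RefSeq sequences of GRCm38.p6, 5' to 3' on the + strand, upstream of the start site, with capitals at matches to TCACNCCAC, a core of the sterol regulatory element, and to CCAAT, the NF-Y box, which reads ATTGG on the opposite strand. The *Hmgcs1* sequence is chr13:119690101-119690350, that of *Lss* is chr10:76531355-76531587 and that of *Insig1* is chr5:28071162-28071362. The sequences of *Lss* and *Insig1* stop before the gene start given below, so 233 and 201 of the 250 bases searched are printed. Those of *Idi1* and the first start site of *Dhcr7*, cut the same way, held no capitalised match and are not printed.
Hmgcs1: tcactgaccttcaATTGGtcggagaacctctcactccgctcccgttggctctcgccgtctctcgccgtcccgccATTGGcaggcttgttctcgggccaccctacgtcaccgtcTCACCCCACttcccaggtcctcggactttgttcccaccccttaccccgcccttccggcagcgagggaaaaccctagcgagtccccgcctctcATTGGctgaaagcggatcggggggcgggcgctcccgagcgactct
Lss: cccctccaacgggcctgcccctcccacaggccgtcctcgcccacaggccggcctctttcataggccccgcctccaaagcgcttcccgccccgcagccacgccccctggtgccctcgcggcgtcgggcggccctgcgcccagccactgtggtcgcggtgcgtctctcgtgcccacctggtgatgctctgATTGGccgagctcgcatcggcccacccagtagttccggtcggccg
Insig1: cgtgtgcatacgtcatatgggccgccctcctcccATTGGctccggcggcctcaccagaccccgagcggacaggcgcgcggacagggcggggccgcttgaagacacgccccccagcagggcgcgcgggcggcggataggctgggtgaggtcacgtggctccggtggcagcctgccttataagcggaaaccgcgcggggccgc
RefSeq promoters were matched by symbol for 5 of the 7 genes, with 7 start sites, and *Sqle* and *Fdft1* had no entry. Both strands of the 250 bases before each start site were searched. Counted per start site, the sterol regulatory element core stood in 1 of 7, that of *Hmgcs1*, at 137 bases before the start, and 1.05% of 32851 promoters of the same length held it. The NF-Y box stood before 5 of 7 start sites against 33.8% of all promoters, and the Sp1 box GGGCGG before 6 of 7 against 32.7%. No motif contains another. In *Dhcr7*, which has 3 of these start sites, the NF-Y box lay before the third alone. Of the 15 other enzymes of the pathway, 12 had an entry, with 13 start sites, of which 0 held the sterol regulatory element core, 11 the NF-Y box and 11 the Sp1 box. These matches describe the letters of the windows, and binding was not measured.

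*Rbfox2* itself had an FPKM (fragments per kilobase of transcript, scaled to the mapped fragments of the sample) of 58.4, 65.0 and 61.3 in control replicates 1, 2 and 3 and of 38.1, 36.3 and 34.3 in mutant replicates 1, 2 and 3. Every mutant was below every control, with a log2 fold change of -0.75 and an adjusted p of 0.138 from limma. *Pax3* stood at 8.84 to 11.9 in controls and 7.59 to 8.62 in mutants. All 8 cranial mesenchyme markers, among them *Prrx1*, *Twist1* and *Alx1*, had a mean FPKM above 1. Control 1 and mutant 1 lay away from the other 4 samples on the first principal component, which held 54.7% of the variance, at -19.1 and -17.0 against 7.55 to 11.01. Y-linked genes were expressed in mutant replicates 1 and 2, with summed FPKM of 57.7 and 55.5 against 0.0989 to 0.217 in the other samples. The samples summed to FPKM of 528123 to 590174. Read counts are not part of FPKM, and the paper gives read numbers only as a range over the samples. The exact depth of each sample is therefore unknown, and no counting interval is given.

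None of the 7 genes differed between control and mutant tissue by more than the spread between replicates. The largest shift was in *Hmgcs1*, the cytosolic HMG-CoA synthase that feeds the mevalonate pathway, whose mean was 136 FPKM in controls and 145 in mutants, with overlapping values. On the log2(FPKM + 1) scale 4 genes lay higher in the mutants and 3 lower, and the differences ran from -0.033 for *Dhcr7* to 0.096 for *Hmgcs1*. Of the 7 genes, 0 had an unadjusted p under 0.05 in limma, 0 had an adjusted p under 0.05, and 0 had control and mutant values that did not overlap. The background was 1.66% of 10061 genes tested with an unadjusted p under 0.05 (167 genes), 5% whose groups did not overlap (503 genes), and 0 with an adjusted p under 0.05. With the replicate number as a block, 604 genes had an unadjusted p under 0.05 and still 0 of the 7. The adjusted p in limma was 1 for each of the 7 genes.

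At the entry to the pathway, *Hmgcs1* (ENSMUSG00000093930, + strand, GRCm38 chr13:119690379-119708260) had an FPKM of 157, 116 and 135 in controls 1, 2 and 3 and of 155, 136.5 and 142.5 in mutants 1, 2 and 3. All 3 mutants lay inside the range of the controls, and control 2 was the lowest sample. The log2 fold change was 0.096 (SE 0.12, 95% interval -0.20 to 0.39) with an exact permutation p of 0.60, where 0.10 is the smallest two-sided p that 3 samples against 3 allow. *Idi1* (ENSMUSG00000058258, + strand, chr13:8885501-8892451), the isomerase that makes dimethylallyl diphosphate for isoprenoid chains, had an FPKM of 54.4, 29.1 and 40.9 in controls and of 44.5, 38.6 and 40.8 in mutants. Its controls spanned 1.87 times from lowest to highest and its mutants 1.15 times, and both control extremes lay outside all mutants. Its log2 fold change of 0.036 (SE 0.21, 95% interval -0.45 to 0.52) therefore had the widest interval of the 7.

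The committed steps to sterols begin with *Fdft1* (ENSMUSG00000021273, - strand, chr14:63145150-63179578), the squalene synthase. Its FPKM was 46.4, 42.8 and 46.0 in controls and 42.7, 47.7 and 46.9 in mutants, so mutants 1 and 2 were the lowest and the highest of all 6 samples. The log2 fold change was 0.021 (SE 0.079, 95% interval -0.17 to 0.21). *Fdft1* overlaps *Ctsb* on the other strand, at a mean FPKM of 45.1, and how reads of this overlap were assigned is not given in the sources used here. *Sqle* (ENSMUSG00000022351, + strand, chr15:59315077-59331192), the squalene epoxidase and a rate-limiting enzyme of the later route, had an FPKM of 73.6, 61.2 and 69.4 in controls and of 68.2, 65.9 and 69.7 in mutants. The mutants again lay within the controls, and the means of 68.1 ± 6.30 and 67.9 ± 1.92 (SD, n = 3 each) gave a log2 fold change of 0.0010 (SE 0.089, 95% interval -0.21 to 0.21).

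*Lss* (ENSMUSG00000033105, + strand, chr10:76531588-76557138), which closes squalene epoxide into lanosterol, was at 17.7, 12.6 and 14.4 FPKM in controls and 15.7, 13.6 and 14.4 in mutants. The third replicates were level, and the log2 fold change was -0.021 (SE 0.13, 95% interval -0.32 to 0.28). *Dhcr7* (ENSMUSG00000058454, + strand, chr7:143823145-143848410), whose product makes cholesterol from 7-dehydrocholesterol, was at 34.6, 24.9 and 28.4 FPKM in controls and 30.6, 29.2 and 25.5 in mutants. The groups overlapped, control 1 was the highest sample and control 2 the lowest, and the log2 fold change was -0.033 (SE 0.13, 95% interval -0.34 to 0.28). *Insig1* (ENSMUSG00000045294, + strand, chr5:28071363-28078662), the sterol-responsive anchor that retains the SREBP escort protein SCAP, was at 36.9, 24.1 and 27.7 FPKM in controls and 32.0, 27.2 and 27.3 in mutants. Its mutants lay within the controls, with a log2 fold change of -0.014 (SE 0.16, 95% interval -0.38 to 0.35). Exact permutation p-values for *Idi1*, *Fdft1*, *Sqle*, *Lss*, *Dhcr7* and *Insig1* were 1.0, 0.60, 1.0, 1.0, 1.0 and 0.80.

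**Figure D1:**
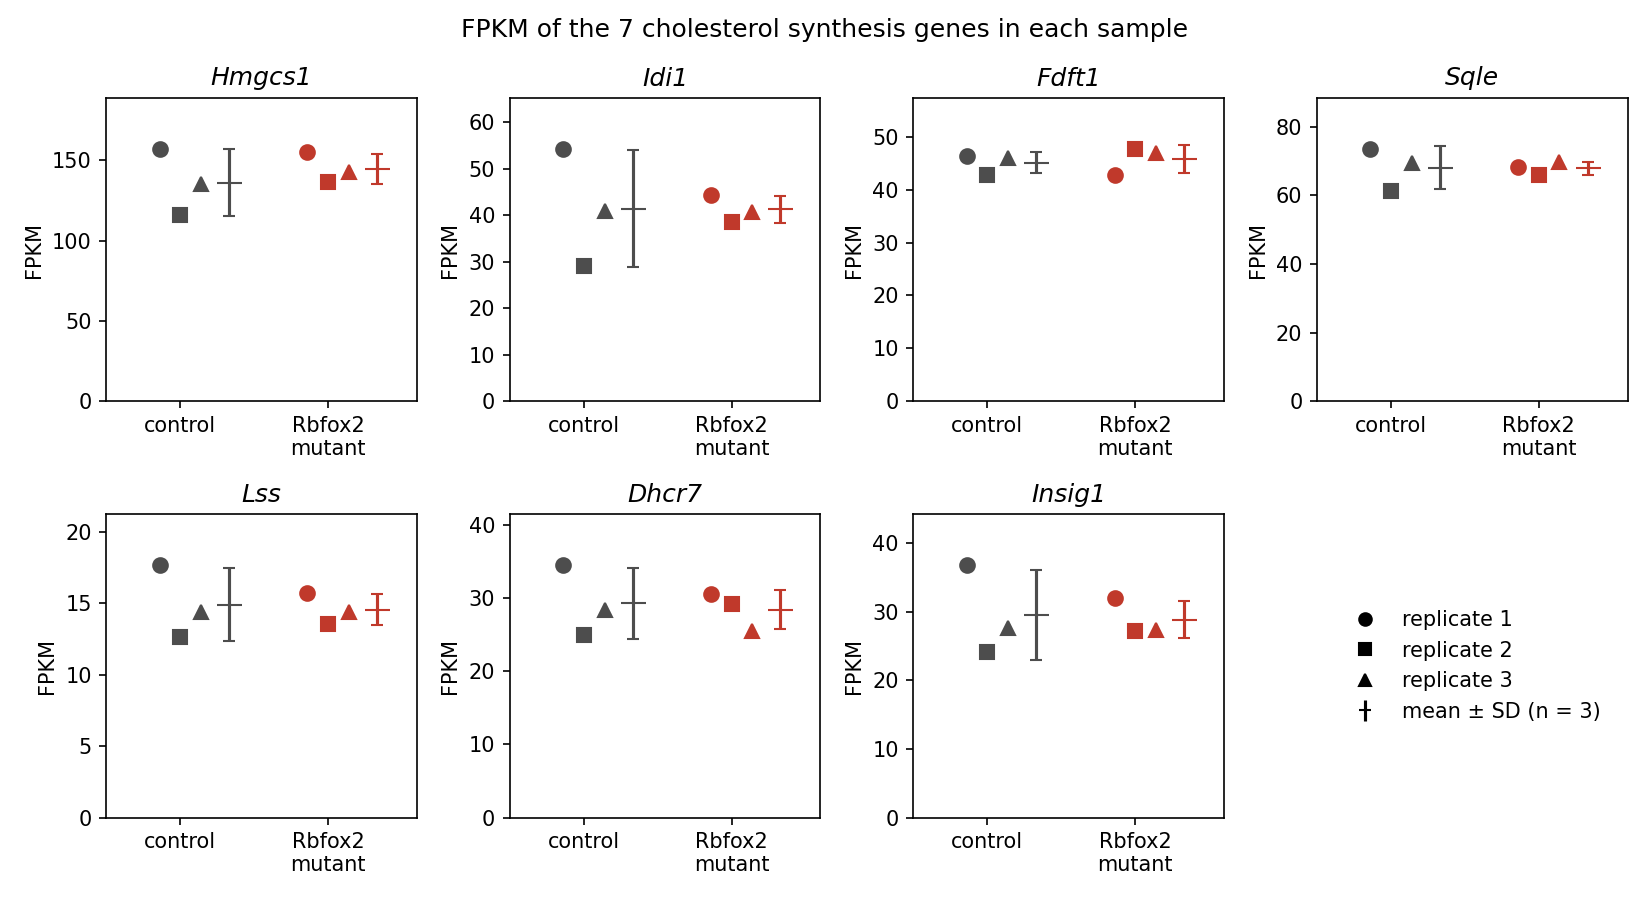
FPKM of each of the 7 genes (vertical axis, from 0) in the 3 control samples (grey) and the 3 *Rbfox2* mutant samples (red), with symbols for the replicate number and the mean ± SD (n = 3) beside each group. The groups overlap in 7 of 7 genes, and the control bars of *Idi1*, at 41.5 ± 12.6, are wider than the mutant bars, at 41.3 ± 2.99.

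These intervals are from the fit without the replicate block, and they set what that fit could show with 3 samples a group. The median standard error of the 7 genes was 0.13 on the log2 scale, against 0.11 over all genes tested, and the log2 fold change had a median size of 0.021 against 0.054. The median log2 fold change of the 7 genes was 0.0010, and that of all genes tested was 0.0057. An interval that holds 0 does not show that the groups were alike. For *Fdft1* and *Sqle* it left differences beyond about 0.21 in either direction outside, whereas for *Idi1* 0.52 remained inside. With the replicate number as a block, the standard error was lower for each of the 7 genes. It then ran from 0.059 for *Sqle* to 0.13 for *Idi1*, so the limits above depend on leaving the block out. Intervals from the blocked fit are not given here.

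**Figure D2:**
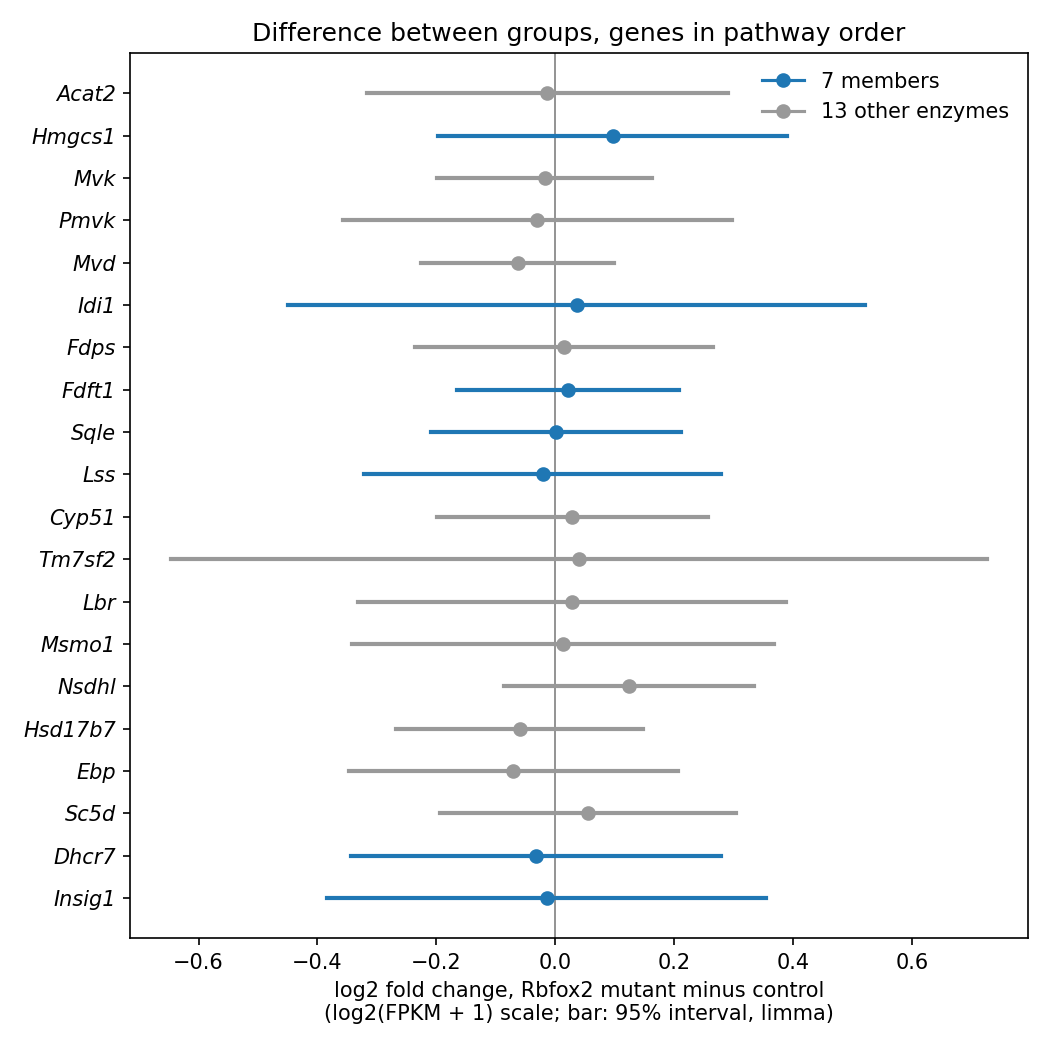
Log2 fold change, mutant minus control, on the log2(FPKM + 1) scale (horizontal axis) for the 7 genes (blue) and 13 of the 15 other enzymes (grey) in pathway order, with 95% intervals from limma. All 20 intervals drawn hold 0, and the blue points run from -0.033 to 0.096.

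The levels of the 7 genes could be ordered per length of transcript, since FPKM divides by it. *Hmgcs1* was the most abundant, with a mean FPKM of 140.4 over the 6 samples (range 116 to 157), and *Sqle* followed at 68.0 (61.2 to 73.6). Each was above the next gene in 6 of 6 samples with no overlap of the ranges. *Fdft1*, at 45.4, and *Idi1*, at 41.4, overlapped, and *Fdft1* was the higher in 4 of 6 samples. *Idi1* was above *Insig1*, at 29.2, in 6 of 6 samples although their ranges overlapped across samples. *Insig1* and *Dhcr7*, at 28.9, could not be ordered, since each was higher in 3 samples. *Lss* was the lowest at 14.7 (12.6 to 17.7), below every sample of the other 6 genes.

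The 7 genes varied together among the control embryos. Control 1 was the highest and control 2 the lowest control in 7 of 7 genes, an order found in 21.2% of all genes tested (2137 genes). In 6 of the 7, control 1 was also the highest of all 6 samples, the exception being *Fdft1*. Mutant 1 was the highest mutant in 5 of 7 genes, against 3127 of 10061 genes tested. Averaged over the 7 genes, with each gene's log2 values taken relative to its own 6-sample mean, controls 1, 2 and 3 stood at 0.23, -0.23 and -0.013, and mutants 1, 2 and 3 at 0.075, -0.034 and -0.022. The mutants were thus closer together, with a range of 0.11 against 0.46 in the controls. The 7 genes were measured in the same 3 control libraries, so these counts are not independent observations.

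By gene, the control range was wider than the mutant range in 6 of 7, against 49.7% of all genes tested (5000 genes), and *Fdft1* was again the exception. The median control range was 0.46 and the median mutant range 0.20 on the log2 scale for the 7 genes, and 0.24 and 0.23 for all genes tested. Controls 1 and 2 set this range, since they differed most for *Idi1*, by 0.88 on the log2 scale. Whether the groups differ in spread was not tested.

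Same-numbered samples were also compared, because deviations from the group means correlated positively for each replicate number. The second pair was the least clear, since mutant 2 correlated at 0.26 with control 2 and at 0.40 with control 3. Between the first replicates the mutant was lower in 7 of 7 genes, and between the second replicates it was higher in 7 of 7. Both held in 31.6% of all genes tested (3181 genes). Any gene with control 1 as the highest and control 2 as the lowest of all samples has both directions. That was so for all of the 7 except *Fdft1*, so for them these counts restate the control values. The log2 differences between the first replicates ran from -0.28 for *Idi1* to -0.022 for *Hmgcs1*, and those between the second replicates from 0.095 for *Lss* to 0.39 for *Idi1*. Between the third replicates, 4 genes were higher in the mutant and 3 lower, from -0.15 for *Dhcr7* to 0.074 for *Hmgcs1*. The direction of the group difference thus followed which control entered it. Without control 1, 7 of 7 genes were higher in the mutants, with a median log2 fold change of 0.10, and without control 2, 7 of 7 were lower, with a median of -0.13. With replicates 2 and 3 only, 7 of 7 were higher, with a median of 0.077. In each of these fits 0 of the 7 had an unadjusted p under 0.05.

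Enzymes of the pathway that were not among the 7 repeated the result that no gene differed by the test. All 15 were tested, 8 lay higher and 7 lower in the mutants, 0 had an unadjusted p under 0.05, and the median log2 fold change was 0.013. *Ebp*, a sterol isomerase, had the lowest log2 fold change of them, at -0.071 (SE 0.12). That of *Nsdhl*, a sterol dehydrogenase of C4 demethylation, was 0.12 (SE 0.089). Both genes lie on chromosome X, and Y-linked genes were expressed in mutants 1 and 2 alone. The part of that imbalance in these values was not tested. *Fdps*, which makes farnesyl diphosphate, was the most abundant of the 15 at a mean FPKM of 111, with a log2 fold change of 0.014. *Mvd*, the mevalonate diphosphate decarboxylase, was the only one of the 15 whose groups did not overlap, against 5% of all genes tested (503 genes). It was at 25.8, 23.9 and 24.6 FPKM in controls and at 23.5, 23.8 and 23.6 in mutants, and its log2 fold change of -0.064 was smaller than its SE of 0.069.

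The control order of the 7 genes was shared by 11 of these 15 enzymes, and 10 of 15 were lower in the mutant between the first replicates and higher between the second. The control range was wider than the mutant range in 10 of 15. *Msmo1*, the C4 methyl sterol oxidase, was at 59.6, 38.2 and 48.0 FPKM in controls and 47.8, 49.3 and 47.8 in mutants, so the mutants lay close together between controls 1 and 2. Other enzymes ran differently. *Tm7sf2*, a sterol C14 reductase, was at 24.1, 12.6 and 12.8 FPKM in controls and 22.7, 12.4 and 15.2 in mutants, high in the first replicates of both groups. *Pmvk*, the phosphomevalonate kinase, was lowest in the first replicates, at 33.4 FPKM in control 1 and 30.0 in mutant 1 against 39.8 to 41.4 in the other samples.

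**Figure D3:**
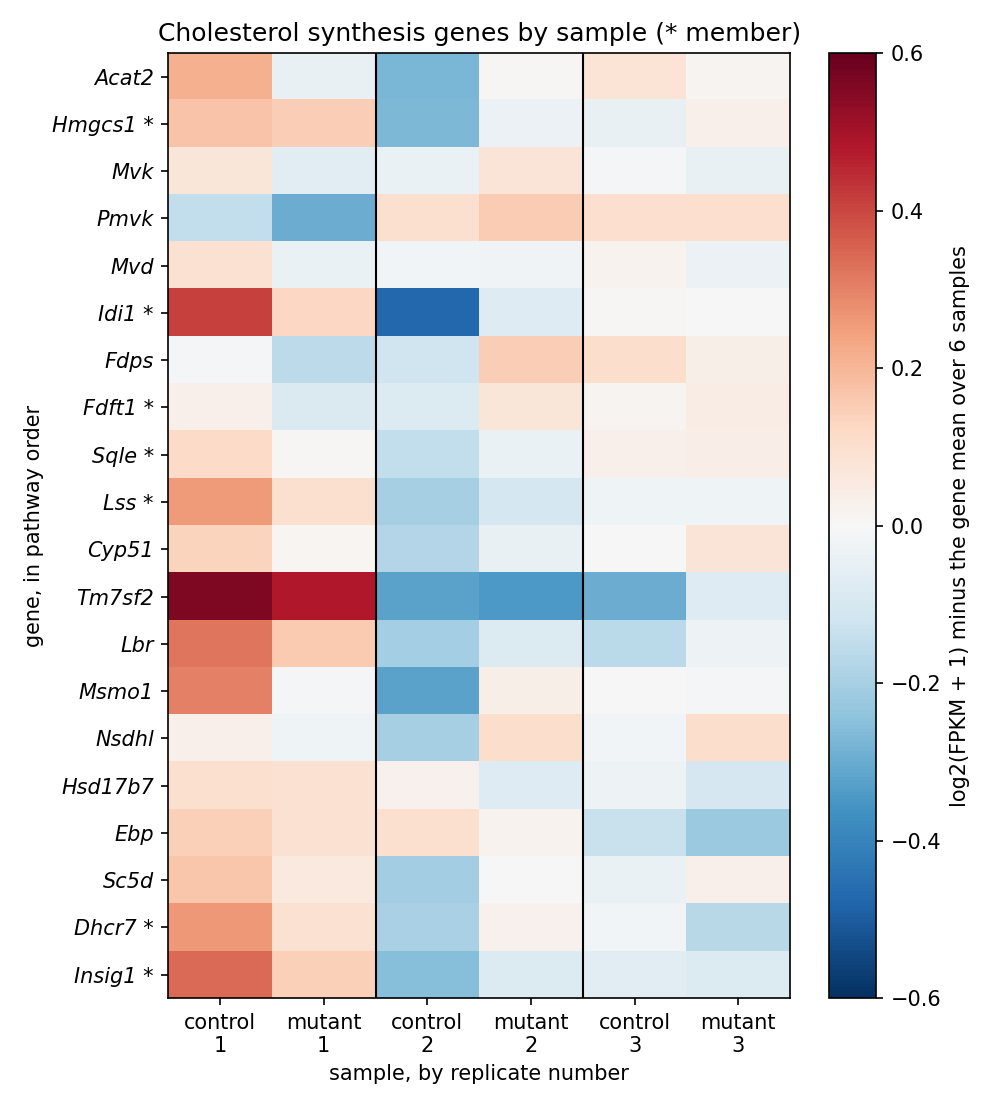
Each gene's log2(FPKM + 1) minus its mean over the 6 samples (colour, blue below and red above) for the 7 genes (asterisks) and 13 of the 15 other enzymes in pathway order, with *Insig1* last, and samples paired by replicate number along the horizontal axis. Control 1 is red and control 2 blue in 7 of the 7 genes, *Idi1* the strongest of them at 0.41 and -0.47, whereas *Fdft1* is at 0.032 and -0.082 there and at -0.086 in mutant 1, and *Tm7sf2* is red in both first replicates.

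The regulators of the pathway did not share the profile as a group. Of 6 genes of sterol sensing and SREBP processing, 1 lay higher and 5 lower in the mutants, 0 had an unadjusted p under 0.05, and 2 had the control order of the 7 genes. *Srebf2*, which encodes SREBP-2, was among these, at 72.7, 58.7 and 62.8 FPKM in controls and 71.7, 63.5 and 59.7 in mutants, with a log2 fold change of 0.0075 (SE 0.11). *Srebf1*, whose product acts mainly on fatty acid synthesis, was at 32.97, 26.8 and 26.6 FPKM in controls and 31.9, 24.8 and 21.9 in mutants, a log2 fold change of -0.14 (SE 0.15). *Insig2*, the relative of *Insig1*, ran apart from it, with 10.8, 13.4 and 15.9 FPKM in controls and 10.7, 9.26 and 14.8 in mutants and a log2 fold change of -0.20 (SE 0.19). *Scap*, the escort protein, and the site proteases *Mbtps1* and *Mbtps2* had log2 fold changes of -0.0069, -0.0063 and -0.024.

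Neighbouring routes of sterol handling also gave 0 genes with an unadjusted p under 0.05. For sterol uptake and transport, 9 of 10 genes were tested, with 3 higher and 6 lower. The most abundant was *Npc2*, a lysosomal cholesterol carrier, at 56.6 to 63.7 FPKM in controls and 59.8 to 62.4 in mutants. For sterol efflux and the LXR response, 5 of 7 were tested, with 1 higher and 4 lower, and 0 of 5 had the control order. *Apoe*, the lipoprotein component of that list with the highest level, was at 75.1, 96.1 and 82.5 FPKM in controls and 73.4, 111 and 91.0 in mutants, lowest in the first replicates. The non-sterol isoprenoid branch had 4 genes higher and 5 lower of 9 tested, and *Fnta*, the shared farnesyl and geranylgeranyl transferase subunit, was the most abundant at a mean of 40.5 FPKM. Fatty acid synthesis had 6 higher and 4 lower of 10 tested, and 6 of 10 had the control order, led in level by the desaturase *Scd2* at 330, 255 and 280.3 FPKM in controls and 315, 268 and 280.7 in mutants.

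*Idi2*, the paralog of *Idi1*, was at 0.0856 FPKM or less in every sample. It did not pass the filter on low values, so it was not tested.

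Genes outside the pathway had the profile of the 7 genes more closely than most enzymes did. The 10 closest of 10054 genes, by the root mean square difference of their centred log2 values from the mean of the 7 over 6 samples, were *1810037I17Rik*, *Esrra*, *Vbp1*, *Ung*, *Slc35f6*, *Abi2*, *Vangl2*, *Clcn3*, *Prkar2b* and *Pigf*, at 0.0242 to 0.0342. None of the 10 belonged to a gene list used here. *Esrra*, an orphan nuclear receptor, was at 10.6, 7.63 and 9.21 FPKM in controls and 9.76, 8.57 and 8.90 in mutants. Of the 15 enzymes and 6 regulators, *Sc5d*, the lathosterol desaturase that acts before *Dhcr7*, was closest at rank 16, followed by *Cyp51* at 181 and *Srebf2* at 207. *Sc5d* was at 22.2, 16.9 and 19.1 FPKM in controls and 20.5, 19.6 and 20.1 in mutants. *Insig2* was the farthest, at rank 9160.

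Markers of other cell types varied across the same samples. All 6 forebrain progenitor markers were tested, 5 of 6 had the control order of the 7 genes, and 6 of 6 were lower in the mutant between the first replicates and higher between the second. Their summed FPKM was 262, 126 and 185 in controls and 194, 220 and 209 in mutants, and *Lhx2*, the most abundant, was at 90.0, 28.1 and 46.4 in controls and 57.6, 69.3 and 69.9 in mutants. Choroid plexus markers, led by *Ttr*, summed to 83.7, 13.6 and 16.3 in controls and 44.3, 91.7 and 42.6 in mutants. Skeletal muscle markers ran the other way, summing to 159, 401 and 256 in controls 1 to 3 and to 151, 230 and 181 in mutants 1 to 3, and control 2 was the highest sample for *Actc1*, the most abundant. The control order was found in 2 of 2 choroid plexus, 0 of 6 muscle and 4 of 7 erythroid markers tested. No marker of these lists was at 0 in every sample. Sums over erythroid markers were 9837, 5120 and 5470 in controls and 9612, 6988 and 10170 in mutants. The part of these markers in the values of the 7 genes was not tested.

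**Figure D4:**
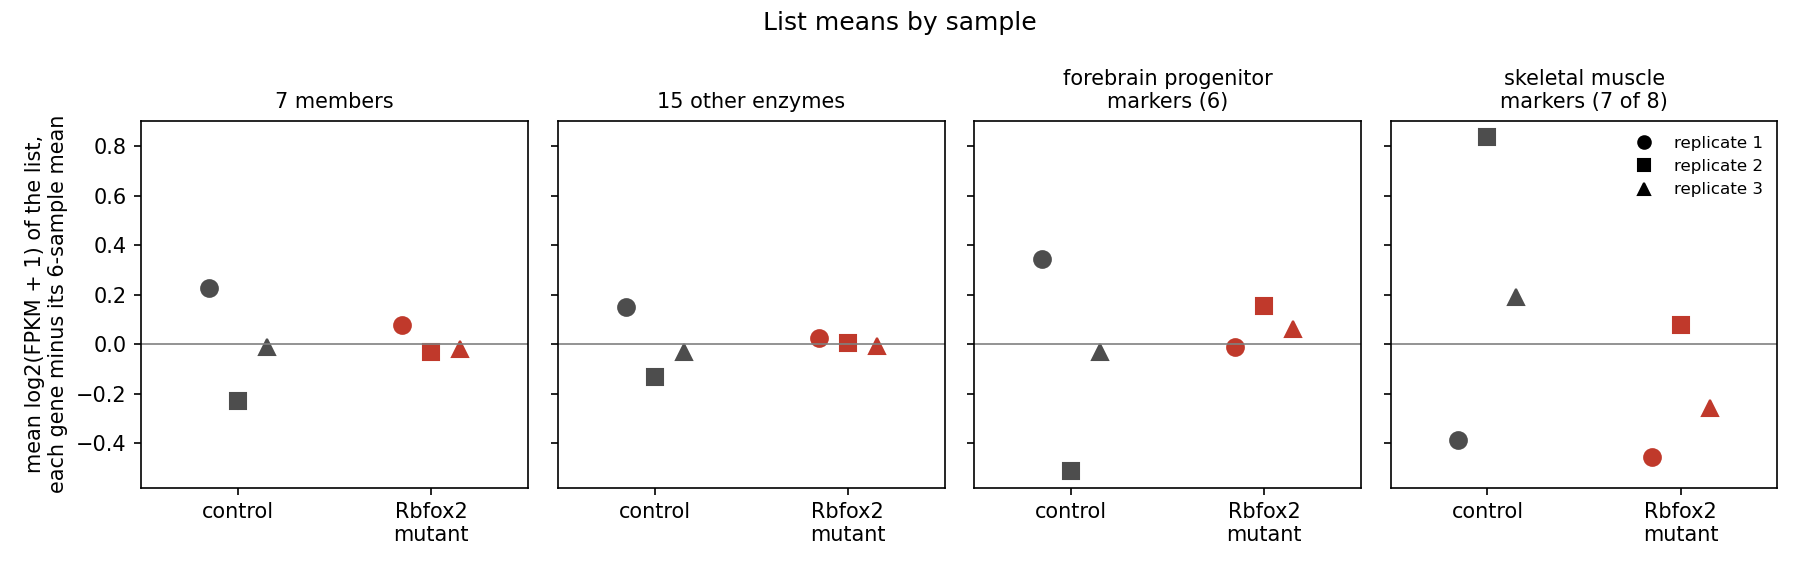
Mean of log2(FPKM + 1) over the genes of a list, each relative to its own 6-sample mean (vertical axis), in controls (grey) and mutants (red) for the 7 genes, the 15 other enzymes, 6 forebrain progenitor markers and the 7 of 8 skeletal muscle markers with a mean FPKM above 1. Control 2 is the lowest sample in the first 3 panels, at -0.23 for the 7 genes and -0.51 for forebrain progenitors, and the highest for muscle, at 0.84.

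Other marker lists did not have the control order of the 7 genes in most of their members. It was found in 0 of 8 cranial mesenchyme, 0 of 4 cartilage and bone, 0 of 6 endothelial, 0 of 7 epithelial, 0 of 1 macrophage, 1 of 4 neural crest glia and 1 of 8 proliferation genes tested. Among neuronal markers, 4 of 10 had it, and 9 of 10 lay higher in the mutants, as did 5311 of 10061 genes tested. Of the 10, *Tubb3*, *Elavl3* and *Dcx* had an unadjusted p under 0.05 in limma against 1.66% of all genes, at log2 fold changes of 0.34, 0.23 and 0.26. These 3 and *Stmn2* had groups that did not overlap, against 5% of all genes, and 0 had an adjusted p under 0.05. In other lists, 7 of 7 erythroid markers lay higher and 6 of 6 muscle markers lower in the mutants, with 0 under an unadjusted p of 0.05 in either list. The median log2 fold change was 0.17 for the neuronal markers and 0.0010 for the 7 genes.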

How the data were processed

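RNA-Seq of craniofacial tissue from 3 control and 3 *Rbfox2* mutant embryos was analysed, with groups and replicate numbers taken from the sample labels. The authors made stranded poly(A)+ libraries, aligned reads to GRCm38 with STAR and deposited FPKM per gene and sample. The submitters' processing notes also name FastQC 0.11.4 and Cuffdiff, and the annotation release and the step that made the gene table are not given in the sources used here. FPKM holds no read counts, so no count test or counting interval was possible. Single-sample tables and the table of all samples differed in 0 values. Coordinates are from GENCODE M21, which held 95.0% of the identifiers, and all 155 listed genes were matched.

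The 10061 genes that exceeded an FPKM of 5 in every control or every mutant were taken to log2(FPKM + 1), pseudocount 1, and compared over 6 samples in limma 3.58.1 (R 4.3.3) with an intensity trend and Benjamini-Hochberg adjustment over all genes tested. Fold changes on this scale understate those of low genes. For single genes an exact two-sided permutation test was added. The fit was checked on simulated data with independent noise in each sample. The simulation held no effect shared by samples of a replicate number, so it could not show how the fit behaves with such an effect. Likeness was ranked by root mean square difference of centred log2 values.

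The genes and all lists were chosen with earlier results of these data known. Genes of the 7, the 15 other enzymes and the 6 regulators could be named. Of other lists, genes with an unadjusted p under 0.05 or without overlap could be named, and the gene with the highest mean. *Prrx1*, *Twist1*, *Alx1*, *Ttr* and *Esrra* serve as examples. Values of some single genes of the lists are not reported here, although list counts include them.

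Deviations from the group means correlated across genes at 0.64, 0.26 and 0.51 between samples numbered 1, 2 and 3, each over 0.1, so the numbers were taken to pair the samples, from these values and not from the labels. Support was weakest for the second pair, since mutant 2 correlated more with control 3, at 0.40, and control 2 reached 0.23 with mutant 3. Alternatives were a pseudocount of 0.1, median-ratio scaling, an FPKM filter of 1 or none, quantile normalization, the replicate block, no trend, a term for the first replicates, replicates 2 and 3 only, a Y-linked covariate and each sample left out.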

Additional observations from a re-analysis of the deposited data

How the results depend on the processing

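With 3 samples a group and no counts, these limits are of spread between embryos. Of the 7 genes, 0 had an unadjusted p under 0.05 in limma in any of the 16 alternatives, and 0 an adjusted p under 0.05, with adjusted p-values from 0.535 to 1. Signs were not stable. Leaving out each sample in turn gave log2 fold changes from -0.014 to 0.21 for *Hmgcs1*, -0.19 to 0.25 for *Idi1*, -0.015 to 0.069 for *Fdft1*, -0.072 to 0.059 for *Sqle*, -0.13 to 0.10 for *Lss*, -0.14 to 0.089 for *Dhcr7* and -0.15 to 0.15 for *Insig1*, the lowest without control 2 in each and the highest without control 1 except for *Fdft1*, where it came without mutant 1. With replicates 2 and 3 only, *Lss*, *Dhcr7* and *Insig1* turned to 0.048, 0.036 and 0.077, and median-ratio scaling turned *Sqle* to -0.0037. With the level of 4 Y-linked genes, high in 2 of 3 mutants and near 0 in every control, as a covariate, *Dhcr7* moved to -0.18 (SE 0.19) and *Insig1* to -0.087 (SE 0.24), the former its lowest value in any alternative. The cause was not tested.

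Over all genes, the number with an unadjusted p under 0.05 was 167, and 604 with the replicate block, 304 with a filter of 1 (13415 genes tested), 663 with no filter (23063 genes tested), 611 with a term for the first replicates, 1103 with replicates 2 and 3 only, and 78 (without control 2) to 649 (without control 1) with a sample left out. The number with an adjusted p under 0.05 was 0 in limma, 3 with the term for the first replicates, 4 with replicates 2 and 3 only, and 0 to 1 with a sample left out, 1 being without mutant 3. The replicate block changed no call for the 7 genes. No scaling moved the median of all genes by more than 0.1 on the log2 scale.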
